A study of Mus musculus with 36 samples.

Results

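Gene expression in kidney samples from 3 control mouse fetuses was compared with that in kidneys from 3 control mice, which are called adult here although no label gives their age. Libraries were assigned to both groups by their labels, and were 9 of the 36 libraries of the series. The fetal group held 3 libraries, 1 per fetus, labelled as normal embryonic kidney. The other group held 6 libraries, 2 from each of 3 mice, labelled as normal kidney and summed per mouse. The genotype label of the fetuses was Pax8-Cre, a Cre recombinase driven by a promoter of the nephric lineage, whereas the design text allows either Pax8-Cre alone or the unrecombined ASPSCR1-TFE3 LSL/+ allele. The genotype label of the mice was Sglt2-Cre, a Cre driven by a promoter of the proximal tubule. Neither group carried the fusion in an active form as far as the labels say. No age in days was given for any animal, and the fetal controls were described as matched in age to fetuses with the fusion. The tissue was formalin-fixed and paraffin-embedded, and total RNA was sequenced without removal of ribosomal RNA. Stage, Cre driver and count table differed together, so their parts in any difference below cannot be told apart.

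The mammalian kidney forms from a branching epithelial tube, the ureteric bud, and from a cap of progenitor cells around each bud tip that renews itself while giving rise to nephrons. Progenitors use the transcription factors Six2, Eya1 and Sall1 and signal to the bud through Gdnf, whose receptor Ret lies on the bud tips. Their progeny pass through vesicle and S-shaped stages marked by Wnt4, Pax2, Pax8 and Lhx1, and then become podocytes, proximal tubule, loop of Henle and distal tubule, whose transporters and metabolic enzymes reach full level only after birth. In the mouse, progenitors are used up within days of birth, so an adult kidney holds none.

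Totals were 105989967 to 120153158 counts per library, and 25433 to 27619 genes had a count. Levels are given as CPM, the counts of a gene per 1e6 counts of its library, scaled with TMM factors, in the order control fetuses 1, 2 and 3 and control mice 1, 2 and 3. Fold changes are fetal over adult on the log2 scale, with the standard error (SE). Adjusted p-values are from the edgeR quasi-likelihood test with Benjamini-Hochberg adjustment, and a gene was called when that value was under 0.05. The tissue is bulk, so fewer cells of a type and less RNA per cell cannot be told apart. Nothing in the labels says whether the fetuses shared a litter. Fetuses 1 and 2 share the first part of their titles and fetus 3 does not.

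Before the comparison, the labelled tissue was checked against marker genes, and the fetal libraries held transcripts of tissues other than kidney. Skeletal muscle transcripts were found in all 3 fetuses. The 8 muscle markers summed to 4708, 4927 and 4677 CPM in the fetuses and to 16.9, 3.51 and 3.74 CPM in the mice. Myh8, the perinatal myosin heavy chain, was at 2286, 2565 and 2558 CPM in the fetuses and at 7.09, 0.583 and 0.574 CPM in the mice. Intestinal transcripts were high in fetuses 2 and 3. The sum of 10 intestinal markers was 8.73, 2430 and 3876 CPM in the fetuses and 10.4 to 11.5 CPM in the mice, and Cdx2, the intestinal master regulator, was at 0, 6.73 and 13.1 CPM in the fetuses and at 0 in every mouse. Pancreatic enzymes followed another split, with 7 markers summing to 583, 835 and 3.00 CPM in the fetuses and to 0.127 to 2.39 CPM in the mice. Skin markers, 7 in all and led by the epidermal keratins Krt1 and Krt10, summed to 885, 354 and 15.7 CPM in the fetuses and to 4.07 to 8.91 CPM in the mice. The intestinal, pancreatic and skin lists were chosen after the values were seen.

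Kidney markers themselves were uneven among the fetuses. Pax2, a nephric lineage factor, was at 77.6, 34.1 and 1.82 CPM in the fetuses and at 41.2, 41.4 and 47.4 CPM in the mice. Pax8, its partner, was at 39.4, 27.0 and 2.17 CPM against 68.3, 69.3 and 64.9 CPM. The level of either was thus far lower in fetus 3 than in any other animal. The summed level of all 8 kidney epithelial markers was 1910, 1741 and 2279 CPM in the fetuses and 11878 to 12697 CPM in the mice. Of these, Cubn, Epcam and Cdh1, which intestine also expresses, ran from low in fetus 1 to high in fetus 3, and Cdh16, a cadherin of kidney tubules, was at 144, 39.99 and 1.33 CPM. Adrenal cortex and gonad markers were low in every animal, at 6.03 CPM or less in sum for adrenal cortex and 4.88 CPM or less for gonad. Cartilage markers summed to 12.8 to 30.0 CPM in the fetuses and to 1.76 to 5.38 CPM in the mice. Neural and adrenal medulla markers summed to 8.76, 29.3 and 84.8 CPM in the fetuses and to 1.31 to 1.58 CPM in the mice. The summed level of liver markers was 109.8, 3000 and 3601 CPM in the fetuses and 1409 to 1668 CPM in the mice, and most of it outside fetus 1 was Apob, which intestine and kidney tubules express too. Adipocyte markers summed to 1.09, 25.9 and 0.595 CPM in the fetuses and to 5.198 to 15.0 CPM in the mice. Lung markers were at 0.175 CPM or less in any animal.

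**Figure D1:**
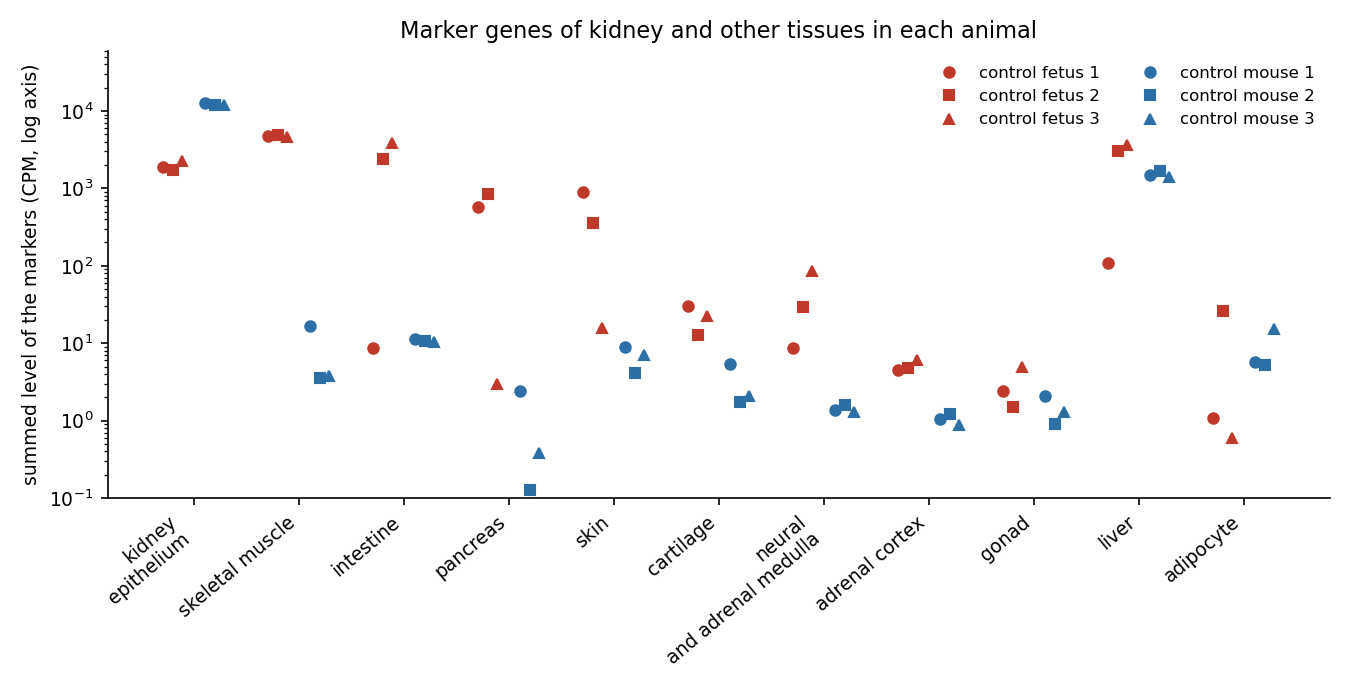
Summed CPM of marker genes (log axis) for kidney epithelium and other tissues, 1 symbol per animal, with control fetuses in red and control mice in blue. Muscle markers stand at 4677 CPM or more in every fetus, whereas intestinal, pancreatic and skin markers are high in some fetuses only.

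Sex also differed. The Y-linked Ddx3y was at 152 CPM in fetus 1 and at 0.735 CPM or less in the other 5 animals. Transcripts typical of fetal tissue were also found in 1 library of control mouse 1, which held 3006 counts of H19 and 1314 of Myh8, whereas the other 5 libraries held 28 to 76 and 54 to 127 counts. Every list below was also counted with fetus 1 alone, the fetus with the fewest intestinal transcripts, against the 3 mice, and without fetus 3. Intestinal genes were low but not absent in fetus 1, where Muc2, an intestinal mucin, was at 3.08 CPM against 0.642 CPM or less in the mice and Lct, the enzyme lactase, was at 1.02 CPM against 0.350 CPM or less, and both were called higher with fetus 1 alone (adjusted p = 0.00392 and 0.0229). In the fit with fetus 1 alone, that fetus is assumed to vary like the mice. Fetus 1 was also the only animal with a high level of Ddx3y, so sex and stage differ together in that fit. The lists were counted once more with mouse 1 taken from its first library.

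Of 22859 genes tested, 11210 (49%) were called. Of these, 5745 were higher in the fetuses (25.1% of genes tested) and 5465 were lower (23.9%). With upper quartile scaling the split was 6881 higher and 4218 lower, and the median of all genes moved from 0.03 to 0.26 on the log2 scale. Every fetus lay above every mouse in 29.9% of genes and below every mouse in 30.9%, or 60.8% without overlap. Counts of list members are read against these shares. Between 7973 and 11654 genes were called when any 1 animal was left out, and 10611 with fetus 1 alone. The lists held 234 genes that were tested, of which 171 were called. The number was 200 with fetus 1 alone, and between 152 and 185 when any 1 animal was left out.

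**Figure D2:**
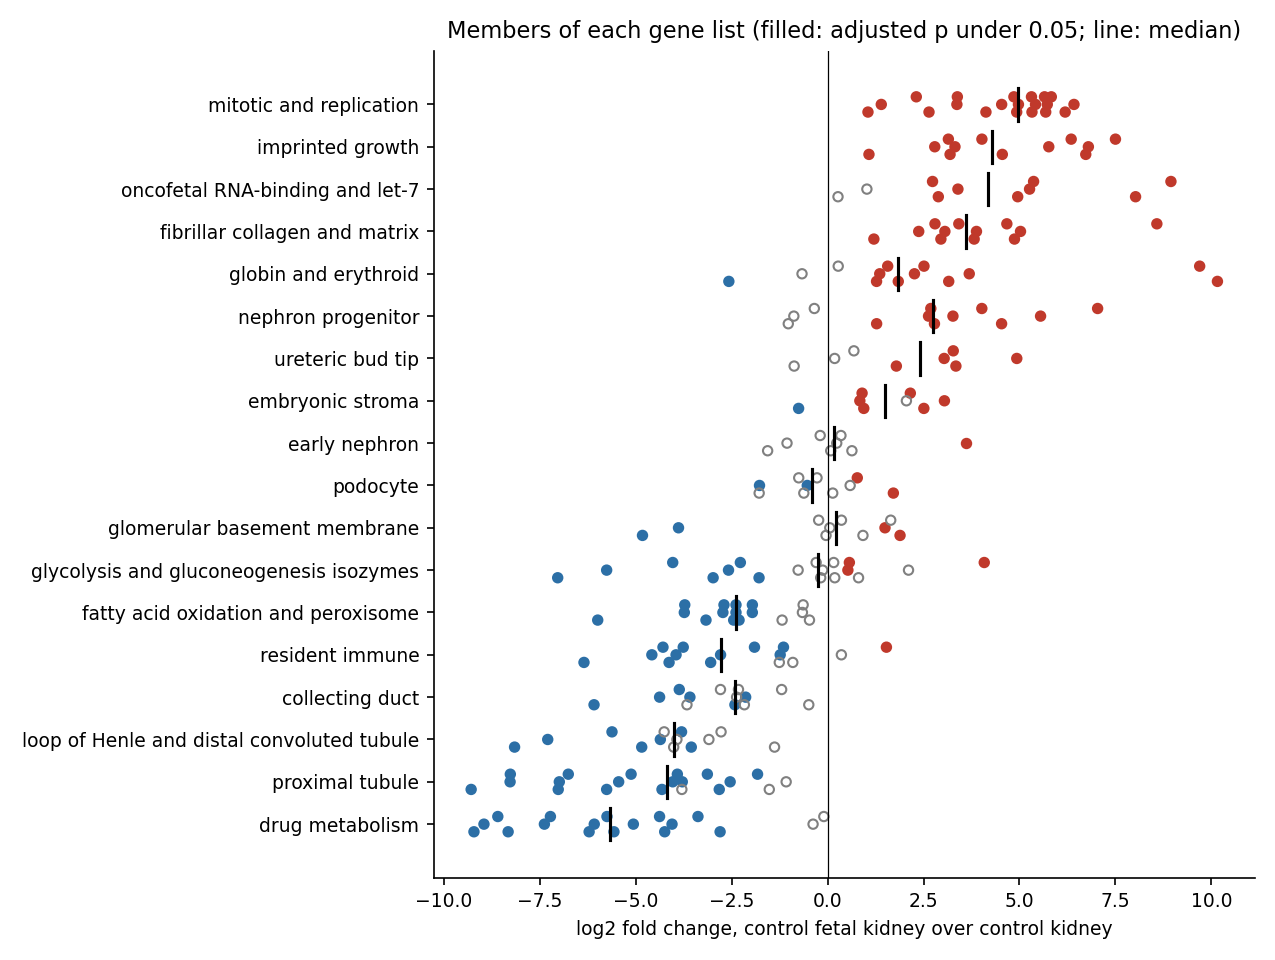
Log2 fold change, control fetal over control kidney, of each tested member of 18 gene lists. Filled points were called by edgeR (red higher, blue lower), open points were not, the black line is the list's median, and genes at 0 in every mouse are drawn at their lower bound. Mitotic, imprinted, oncofetal and matrix lists lie to the right, and tubule transport, drug metabolism and fatty acid oxidation lists lie to the left.

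Genes of cell division separated the groups without exception. All 20 members of the mitotic and replication list were higher in the fetuses, with a median of 4.95, and all 20 were also called with fetus 1 alone and without fetus 3. Cdk1, the kinase that drives entry into mitosis, was at 83.2, 83.9 and 75.0 CPM in the fetuses and at 1.62, 1.44 and 1.51 CPM in the mice. The rise was 5.72 (SE 0.15, edgeR adjusted p = 2.53e-05). Ccnb1, the cyclin partner of Cdk1, was at 102, 110.2 and 102 CPM against 1.47, 0.973 and 1.86 CPM, and rose by 6.19. Bub1, a spindle checkpoint kinase, rose by 6.42, the largest value in the list. Pcna, the replication clamp, rose by 1.40, from 64.8 to 70.8 CPM in the mice to 156 to 195 CPM in the fetuses. Tyms, which makes thymidylate, rose by 1.05. Within each group the 3 animals were close to each other, and the groups did not overlap for any member. The dividing cells could lie in any of the tissues present, and the part of each was not tested.

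The stretch before the start of transcription is shown for this pair because it is where cell cycle factors are known to bind. Sequences are the 250 bases before the start of transcription in the RefSeq promoter table (build GRCm38.p6), 5′ to 3′, with the CCAAT box and the TTTGAA element of cell cycle genes in capitals on either strand. Cdk1 lies at chr10:69352913-69353162 on the minus strand, and Ccnb1 at chr13:100786487-100786736 on the minus strand.
Cdk1: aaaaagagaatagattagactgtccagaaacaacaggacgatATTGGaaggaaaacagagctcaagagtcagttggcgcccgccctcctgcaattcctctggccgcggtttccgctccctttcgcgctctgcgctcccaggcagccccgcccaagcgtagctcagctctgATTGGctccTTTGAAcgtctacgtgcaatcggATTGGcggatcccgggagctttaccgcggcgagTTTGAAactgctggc
Ccnb1: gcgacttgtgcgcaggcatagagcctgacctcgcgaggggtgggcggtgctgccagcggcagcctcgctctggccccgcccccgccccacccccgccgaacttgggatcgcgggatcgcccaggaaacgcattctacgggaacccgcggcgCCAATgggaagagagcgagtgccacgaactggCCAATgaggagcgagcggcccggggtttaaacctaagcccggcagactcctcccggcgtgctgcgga
The Cdk1 stretch held 3 CCAAT boxes and 2 TTTGAA elements, and the Ccnb1 stretch held 2 and 0. Of the 20 members, 17 matched the table by symbol, of which 15 (88.2%) held CCAAT and 6 (35.3%) held TTTGAA, against 34.5% and 16.3% of the 27025 genes in the table. GGGCGG, the GC box, was in 76.5% of the 17 and in 32.9% of all. Each motif was searched on both strands in the first start listed for a gene. A match is a description of the letters, not evidence of binding.

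Imprinted genes of growth were higher in the fetuses. They include a pair of neighbouring clusters. H19 (chr7:142575529-142578143) and Igf2 (chr7:142650766-142666816) lie together, and so do Dlk1 (chr12:109452823-109463336) and Meg3 (chr12:109541001-109571726), coordinates being those of GENCODE M21 on GRCm38. All 12 members were higher in the fetuses, with a median of 4.29, and 11 were with fetus 1 alone. Dlk1, a Notch-related membrane protein, was at 115, 109 and 131 CPM in the fetuses and at 1.07, 1.26 and 2.02 CPM in the mice. It rose by 6.35 (SE 0.31, edgeR adjusted p = 3.96e-05). Meg3, a noncoding RNA of the same cluster, rose by 6.80. H19, a noncoding RNA, was at 807, 1110 and 953 CPM in the fetuses and at 14.9, 0.376 and 0.521 CPM in the mice, the high value coming from the second library of mouse 1. Igf2, the fetal insulin-like growth factor, was at 49.9, 104 and 50.6 CPM against 21.7, 4.73 and 3.02 CPM. The libraries of a mouse were uneven, with 6 and 10 counts of Igf2 in the first libraries of mice 2 and 3 and 1000 and 663 in their second. Its rise of 2.79 (edgeR adjusted p = 0.0267) was 4.12 without mouse 1, the mouse with the highest level, and 4.96 with limma-voom. It was not called with limma-voom or with fetus 1 alone (adjusted p = 0.107), nor without mouse 2 (0.0910), mouse 3 (0.0650) or fetus 2 (0.0824). Cdkn1c, an inhibitor of the cell cycle, rose by 3.15. Igf2r, the receptor that clears Igf2, rose least, by 1.08. Its call was lost without mouse 1 (adjusted p = 0.0594) or mouse 3 (0.0697). The fetal libraries also held muscle and other tissues, and the part of those in the imprinted genes was not tested.

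The oncofetal list, built around the RNA-binding proteins that oppose the let-7 microRNA and the targets of let-7, was mostly higher. Of its 10 members, 8 were higher, none was lower, and the median was 5.32, or 4.17 with genes at 0 in every mouse set to their lower bound. Igf2bp3, an mRNA-binding protein of embryonic cells, was at 33.7, 72.3 and 87.7 CPM in the fetuses and at 0.315, 0.0940 and 0.332 CPM in the mice, a rise of 8.03 (SE 0.69, edgeR adjusted p = 0.00027). Hmga2, an architectural chromatin protein silenced by let-7, was at 34.6, 25.7 and 52.8 CPM against 0.123, 0.0282 and 0.0763 CPM, and rose by 8.95. Lin28b, which blocks the maturation of let-7, was at 1.10, 0.640 and 0.884 CPM in the fetuses and had no count in any mouse. Against a floor of 6 counts in a mouse its mean was at least 31.0-fold higher. Igf2bp1 rose by 5.26. Arid3a and Arid3b, targets at which the mice already stood above 5 CPM, differed by 1.02 and 0.27 and were not called. Arid3a was called without fetus 1 (adjusted p = 0.0132). With fetus 1 alone 8 of 10 were again higher. Igf2bp3 was lowest in fetus 1 and highest in fetus 3, the order of the intestinal markers, and the part of other tissues in this list was not tested.

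Matrix genes rose as a block. All 12 members of the fibrillar collagen and matrix list were called higher, with a median of 3.62, and all 12 were called with fetus 1 alone. Col3a1, a fibrillar collagen of soft tissue, was at 2080, 1502 and 1736 CPM in the fetuses and at 44.95, 62.9 and 101 CPM in the mice, and rose by 4.67 (SE 0.36, edgeR adjusted p = 0.000174). Col1a1 rose by 5.03. Fbn2, the fetal fibrillin, was at 330.4, 252 and 333 CPM against 1.42, 0.503 and 0.471 CPM, a rise of 8.58 (9.275 without mouse 1). Decorin (Dcn), a proteoglycan of mature connective tissue, changed least, by 1.21. Muscle and gut wall hold the same collagens, and the part of those tissues was not tested.

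Of 13 globin and erythroid genes tested, 10 were higher and 1 was lower. Embryonic globins marked the fetal samples. Hba-x, an embryonic alpha-like globin, was at 49.6, 7.19 and 11.2 CPM in the fetuses and at 0.0590, 0 and 0 CPM in the mice. Hbb-y, an embryonic beta-like globin, was at 14.2, 0.858 and 2.57 CPM in the fetuses. Adult globins were present in both groups, with Hba-a1 at 428, 334 and 480.1 CPM against 158, 159 and 168 CPM (a rise of 1.36) and Hbb-bt at 203, 142 and 274 CPM against 32.0, 38.2 and 38.1 CPM (a rise of 2.51). Globin genes have near-identical copies, and how reads shared by them were counted is not known. Klf1, an erythroid transcription factor, ran the other way, at 0.303, 0.0648 and 0.158 CPM in the fetuses and at 0.978 to 1.13 CPM in the mice, and fell by 2.58 (edgeR adjusted p = 0.00904). Its log2 fold change was -3.25 without fetus 1.

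**Figure D3:**
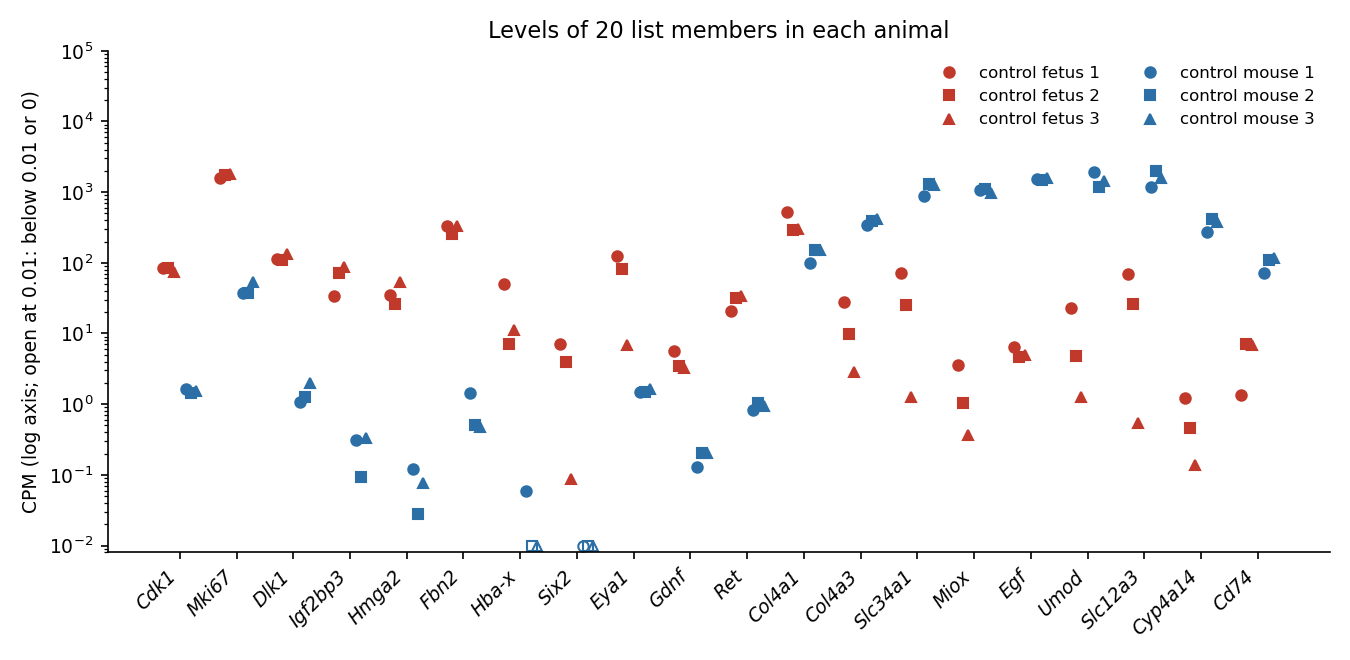
CPM (log axis) of 20 list members in each animal, control fetuses in red and control mice in blue, with open symbols for values under 0.01 CPM or 0. Cdk1 and Mki67 differ little among fetuses, whereas Six2, Slc34a1 and Slc12a3 fall from fetus 1 to fetus 3.

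Most listed genes of the nephrogenic zone were higher in the fetal samples. The fetal libraries also held other tissues, and the part of those in these genes was not tested. Of 12 nephron progenitor genes, 9 were higher and none was lower, with a median of 2.74, and without fetus 3 it was 9 higher (23.2% of all genes in that fit) and 1 lower, Sall1. Six2, the factor that keeps progenitors undifferentiated (chr17:85684277-85688274), was at 7.12, 3.90 and 0.0875 CPM in the fetuses and had no count in any mouse, so that the fetal mean was at least 131-fold above the floor of 6 counts in a mouse. Its call (edgeR adjusted p = 0.0177) was lost without fetus 2 (adjusted p = 0.0553) and with limma-voom. The log2 fold change of Six2 moved by -0.82 without fetus 1 and by 0.62 without fetus 3. Eya1, a cofactor of Six2, was at 126, 81.8 and 6.85 CPM against 1.47, 1.47 and 1.64 CPM, a rise of 5.55 (SE 1.02, adjusted p = 0.00508), or 4.84 without fetus 1. The bud inducer Gdnf was at 5.64, 3.48 and 3.26 CPM against 0.128, 0.202 and 0.202 CPM, and rose by 4.53. Of the 12 members, 10 decreased in the order of fetus 1, fetus 2 and fetus 3. Osr1, a factor of the intermediate mesoderm, did not, at 9.39, 12.3 and 17.0 CPM against 1.71 to 2.34 CPM. Sall1, Meox1 and Crym were not called. Sall1 was at 168, 102 and 34.0 CPM in the fetuses and at 192 to 215 CPM in the mice, and was called lower without fetus 1 (adjusted p = 0.0251) or fetus 3 (0.0465). Cited1 (adjusted p = 0.0458) and Itga8 (0.0369) lay near the threshold and lost the call in 5 and 4 of the 6 fits that left out 1 animal.

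Bud tip, early nephron and stromal genes are described next. Of 8 ureteric bud tip genes, 5 were higher and none was lower, with a median of 2.41. Ret, the Gdnf receptor, was at 20.7, 31.6 and 33.7 CPM in the fetuses and at 0.821, 1.04 and 0.956 CPM in the mice, a rise of 4.93 (SE 0.27, edgeR adjusted p = 5.27e-05). Its level was highest in the fetuses with intestinal and neural transcripts, and enteric nerve precursors express Ret too. The part of those cells was not tested. Sox9, a factor of bud tips and of cartilage, rose by 3.04. Wnt11 rose by 3.34 (adjusted p = 0.0455). Its call was lost without fetus 1 (a difference of 2.32, adjusted p = 0.103), fetus 2 (3.56, 0.0795), mouse 2 (2.74, 0.0720) or mouse 3 (3.15, 0.142), and its value was 4.46 without mouse 1. Of 8 early nephron genes tested, only Wnt4, the signal that turns progenitors into epithelium, was called, at 22.6, 8.36 and 6.75 CPM against 0.885, 1.16 and 1.05 CPM (a rise of 3.61, or 2.86 without fetus 1). With fetus 1 alone 6 of 10 were higher and 1 was lower, against 20.1% higher and 21.9% lower among all genes in that fit. The difference of Pax2 was -0.19 with all 3 (adjusted p = 0.888) and 0.83 with fetus 1 alone. That of Pax8 was -1.56 with all 3 (adjusted p = 0.172) and -0.79 with fetus 1 alone. Without fetus 3, Pax8 was called lower (-1.08, adjusted p = 0.00501). Of 8 genes of embryonic stroma, 6 were higher and 1, the guidance factor Ntn1, was lower, though not with fetus 1 alone (adjusted p = 0.0949). Fat4, a giant cadherin of stroma, was at 555, 504 and 662 CPM against 61.7, 67.6 and 79.5 CPM and rose by 3.04. Foxd1, which defines the stromal progenitor, was at 51.8, 21.3 and 0.840 CPM in the fetuses and at 5.40 to 6.42 CPM in the mice. It was not called with all fetuses (adjusted p = 0.174) and was called without fetus 3 (0.00267).

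Levels were also divided by the summed level of Pax2 and Pax8, a measure added after the data were seen. That sum was 117, 61.1 and 3.99 CPM in the fetuses and 109.5, 111 and 112 CPM in the mice. Per unit of it, Eya1 was at 1.08, 1.34 and 1.72 in the fetuses and at 0.0134, 0.0133 and 0.0146 in the mice. Cited1, a marker of the uninduced progenitor, was at 0.119, 0.128 and 0.189 against 0.0028 to 0.0141. Other progenitor genes kept the fetuses apart. On this scale Gdnf, the ligand of Ret, was at 0.0482, 0.0570 and 0.816 in the fetuses, Tmem100 at 0.515, 0.7015 and 10.1 and Hoxa11 at 0.177, 0.157 and 3.77, all highest in fetus 3, while Six2 was at 0.0609, 0.0639 and 0.0219, lowest in fetus 3. Slc34a1 was at 0.619, 0.411 and 0.316 against 8.12 to 11.8, and Slc22a12 at 0.0666, 0.0513 and 0.0439 against 1.34 to 1.57. Fetus 3 had little of the denominator, and lists were counted from fetuses 1 and 2. Among all genes tested, both fetuses lay above every mouse on this scale for 39.1% and below every mouse for 19.3%. Both lay above all mice in 9 of 12 nephron progenitor genes, 7 of 8 bud tip genes, 7 of 8 early nephron genes (without Pax2 and Pax8 themselves) and 3 of 10 podocyte genes. Both lay below all mice in 1 gene of each of the first pair of lists, none of the early nephron list, 2 of 10 podocyte genes, 18 of 20 proximal tubule genes, 13 of 13 loop and distal genes, 12 of 13 collecting duct genes and 16 of 18 drug metabolism genes.

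**Figure D4:**
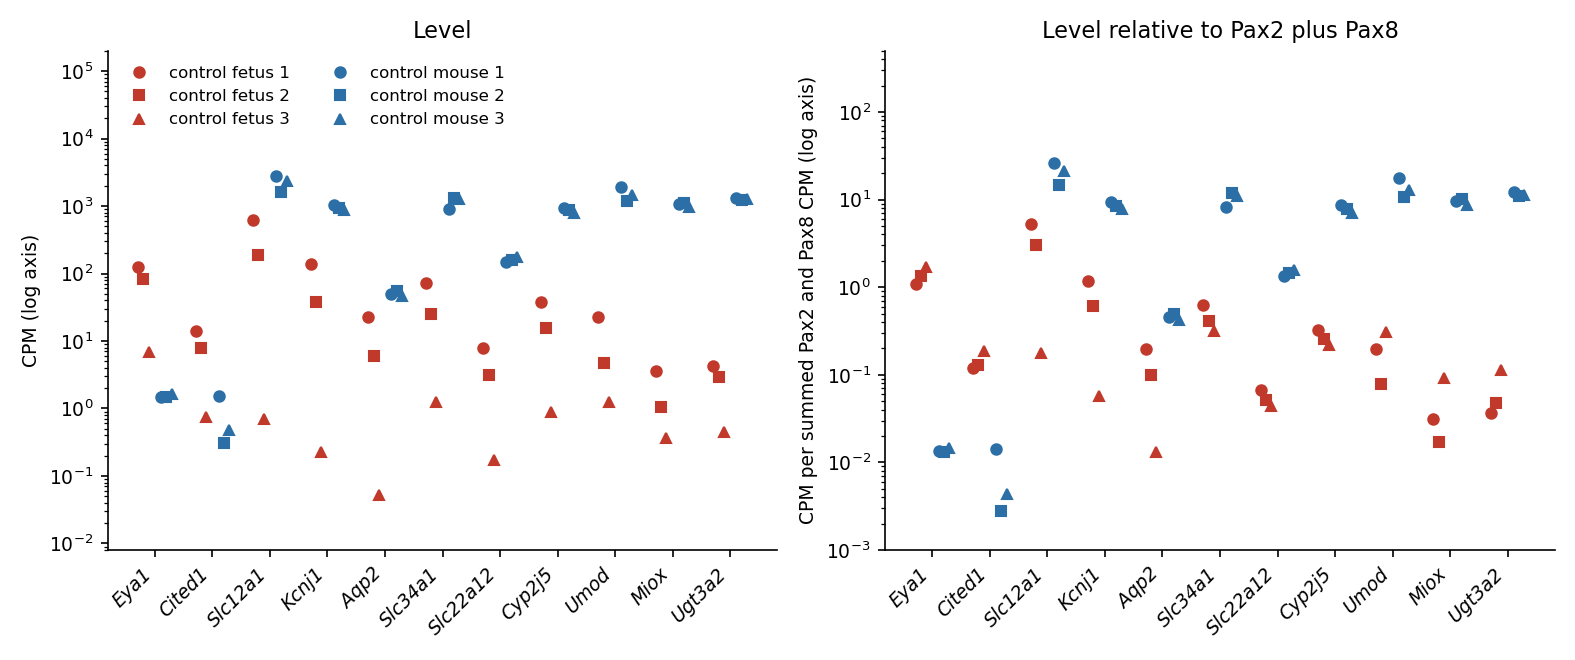
Levels of 11 kidney genes as CPM (left, log axis) and divided by the summed CPM of Pax2 and Pax8 in the same animal (right, log axis), control fetuses in red and control mice in blue. On the right, the fetuses draw together for Eya1, Slc34a1, Slc22a12 and Cyp2j5 and remain apart for Slc12a1, Kcnj1 and Aqp2, where fetus 3 stays low, and fetus 3 is the highest of the fetuses for Umod, Miox and Ugt3a2.

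Of 10 genes of the glomerular basement membrane, 2 were higher and 2 were lower in the fetuses, against 25.1% higher and 23.9% lower among all genes tested. The membrane first contains a network of the alpha-1 and alpha-2 chains of type IV collagen, which the alpha-3, alpha-4 and alpha-5 chains later replace. Col4a1 (chr8:11198423-11312826) was at 529.9, 295 and 305 CPM in the fetuses and at 99.8, 152 and 149.6 CPM in the mice, a rise of 1.495 (SE 0.29, edgeR adjusted p = 0.00627). Col4a3 (chr1:82586921-82722059) was at 27.9, 9.90 and 2.87 CPM against 338, 392.3 and 423 CPM, and fell by 4.83 (SE 0.82, adjusted p = 0.00378). Col4a4, which lies beside Col4a3 (chr1:82448423-82586849), was at 37.3, 14.4 and 2.76 CPM against 242, 301 and 263 CPM, and fell by 3.89. Without fetus 1 the log2 fold change was -5.925 for Col4a3 and -4.98 for Col4a4. The other chains of both networks were not called. Col4a2 was at 348.6, 163 and 213.5 CPM against 85.8, 151 and 147 CPM, a difference of 0.92 (adjusted p = 0.0617), and Col4a5 was at 84.2, 41.4 and 48.5 CPM against 44.7, 67.1 and 67.4 CPM, a difference of -0.04 (adjusted p = 0.920). Tubule basement membranes hold these chains as well, and vessels and muscle hold the first pair. Lamc1, a laminin chain shared by many membranes, rose by 1.89. In all, 6 of the 10 members were not called. With fetus 1 alone, 6 of the 10 were higher and 2 were lower, with a median of 0.77, against 20.1% higher and 21.9% lower among all genes in that fit.

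Podocyte genes showed no common direction. Of 10 members, 2 were higher and 2 were lower, with a median of -0.40. These counts lay near the shares among all genes tested, 25.1% higher and 23.9% lower. Wt1, a factor of progenitors and podocytes, was at 117, 65.6 and 43.7 CPM in the fetuses and at 17.4, 26.5 and 25.1 CPM in the mice, and rose by 1.71 (edgeR adjusted p = 0.0103). Magi2, a scaffold of the slit diaphragm, fell by 1.78 (adjusted p = 0.0109). The slit diaphragm gene Nphs1 was at 17.5, 7.61 and 0.158 CPM against 20.5 to 37.9 CPM and was called lower when fetus 3 was left out (adjusted p = 0.0495). Podxl, a sialomucin of the podocyte surface, fell by 0.53 (adjusted p = 0.0369), and lost the call with fetus 1 alone (0.231) and in 4 of the 6 fits that left out 1 animal.

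The proximal tubule, which reclaims glucose, phosphate, amino acids and filtered protein, was far lower in the fetal samples. Of 20 members, 17 were lower and none was higher, with a median of -4.18, and 19 were lower with fetus 1 alone. Miox, the enzyme that degrades myo-inositol and is nearly specific to this segment, was at 3.62, 1.05 and 0.368 CPM in the fetuses and at 1060, 1120 and 980.3 CPM in the mice. It fell by 9.29 (SE 1.004, edgeR adjusted p = 0.000638). Slc5a2, the glucose transporter Sglt2 whose promoter drives Cre in the mice, was at 1.74, 0.883 and 0.271 CPM against 216, 389 and 295 CPM, and fell by 8.28 (adjusted p = 0.000403). Slc34a1, the main phosphate transporter, was at 72.4, 25.1 and 1.26 CPM against 889, 1303 and 1250 CPM. It fell by 5.12 (adjusted p = 0.0167), which was not called without fetus 2 (0.0678). The scavenger receptor Lrp2, or megalin, was at 979.8, 407 and 72.6 CPM against 6568 to 6857 CPM and fell by 3.79, which was not called without fetus 2 (0.0509). Without fetus 1, the fetus with the highest level of these 4 genes, the log2 fold change was -10.54 for Miox, -9.03 for Slc5a2, -6.46 for Slc34a1 and -4.82 for Lrp2. The partner of megalin, Cubn, ran in the opposite order among fetuses, at 376, 764 and 1305 CPM against 2867 to 2925 CPM. Intestine expresses Cubn, Slc6a19, Slc7a7 and Hnf4a too. Slc6a19, the neutral amino acid transporter, was at 1.72, 48.1 and 79.1 CPM against 102 to 153 CPM, was not called with all fetuses (adjusted p = 0.271), and was called lower without fetus 1 (0.0278) and with fetus 1 alone (0.000256), where it fell by 6.17. Slc7a7, another amino acid transporter, was at 7.22, 81.7 and 95.8 CPM against 107 to 163 CPM. It was not called with all fetuses and was called lower with fetus 1 alone (adjusted p = 0.000569). The third gene not called, the organic anion transporter Slc22a6, was at 24.3, 4.22 and 0.114 CPM against 22.2, 146 and 231 CPM, the low mouse being mouse 1, and was called lower without fetus 1 (adjusted p = 0.0295).

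Promoter stretches of both genes are given because the members fell together. Capitals mark GTTAAT, the short site of the HNF1 factors that specify this segment, on either strand. Slc34a1 lies at chr13:55399398-55399647 on the plus strand, and Miox at chr15:89334223-89334472 on the plus strand (RefSeq table, GRCm38.p6).
Slc34a1: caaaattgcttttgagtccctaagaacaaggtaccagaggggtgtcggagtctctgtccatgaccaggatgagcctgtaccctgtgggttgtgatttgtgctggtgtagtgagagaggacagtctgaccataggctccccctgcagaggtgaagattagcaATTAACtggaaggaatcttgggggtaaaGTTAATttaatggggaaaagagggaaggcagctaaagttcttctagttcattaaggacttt
Miox: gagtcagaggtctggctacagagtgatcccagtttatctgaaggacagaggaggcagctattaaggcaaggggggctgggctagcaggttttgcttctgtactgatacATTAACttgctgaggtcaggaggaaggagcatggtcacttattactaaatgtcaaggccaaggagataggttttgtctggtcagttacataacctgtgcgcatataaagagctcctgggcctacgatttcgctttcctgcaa
The Slc34a1 stretch held 2 matches and the Miox stretch 1. Of 18 proximal tubule genes found in the table, 5 (27.8%) held the short site, against 6.52% of all genes. For the drug metabolism list below the share was 1 of 13 (7.69%). CCAAT was in 33.3% of the 18 and in 34.5% of all. CAAAGTCCA, a site of HNF4, was in 0 of the 18 and in 0.381% of all.

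Drug and lipid oxidation enzymes of the tubule were mostly lower. Of 18 members of the drug metabolism list, 16 were lower, with a median of -5.66, and 17 were lower with fetus 1 alone. Cyp4a14, a fatty acid hydroxylase, was at 1.20, 0.453 and 0.140 CPM in the fetuses and at 276, 419 and 377 CPM in the mice, and fell by 9.22 (SE 0.89, edgeR adjusted p = 0.000417). Ugt3a2, a glycosyltransferase, was at 4.28, 2.93 and 0.455 CPM against 1331, 1217 and 1265 CPM and fell by 8.96. The hydroxysteroid dehydrogenase Akr1c21 fell by 8.60. Cyp2j5, an arachidonate epoxygenase, was at 38.02, 15.8 and 0.875 CPM against 795 to 946 CPM and fell by 5.57. Without fetus 1 the log2 fold change was -10.23 for Cyp4a14, -9.56 for Ugt3a2, -9.37 for Akr1c21 and -6.71 for Cyp2j5. These families have close paralogs, so that reads may be split among members. Cyp27b1, which activates vitamin D, and Gstp1, a glutathione transferase, were not called. Cyp27b1 was at 6.96, 3.68 and 0.236 CPM against 1.45, 7.90 and 4.79 CPM.

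Loop of Henle and distal convoluted tubule genes lay lower in every fetus than in every mouse for all 13 members, and 7 were called lower with all fetuses. Fetus 3 stood far below the other fetuses for most of them. Without fetus 3, 12 of 13 were called lower, against 24.2% of all genes in that fit. Egf, made by the distal tubule after birth, was at 6.38, 4.66 and 5.04 CPM in the fetuses and at 1556, 1462 and 1581 CPM in the mice, and fell by 8.16 (SE 0.21, edgeR adjusted p = 2.53e-05). Umod, or uromodulin of the thick ascending limb, was at 22.9, 4.79 and 1.24 CPM against 1908, 1200 and 1442 CPM and fell by 7.30. Slc12a1, the sodium transporter of the same segment, was at 613, 185 and 0.709 CPM against 2826, 1630 and 2370 CPM. The difference of -3.10 was not called (adjusted p = 0.163). It was -2.58 and called without fetus 3 (0.0122), -4.63 and not called without fetus 1, and -5.59 and called with limma-voom. Kcnj1, the potassium channel that works with it, was at 137, 37.5 and 0.228 CPM against 879 to 1019 CPM and was not called with all fetuses (adjusted p = 0.0831). It was called lower without fetus 1 (0.0431) or fetus 3 (0.0045), with DESeq2 and with limma-voom. With fetus 1 alone its log2 fold change was -2.79. It was also called when the 2 libraries of each mouse were kept apart, a fit that treats them as independent although they are not. In the distal tubule, Slc12a3 was at 69.8, 26.5 and 0.534 CPM against 1195, 1970 and 1600 CPM and fell by 5.62 (adjusted p = 0.0202), a call that was lost without fetus 2 (0.0776) or mouse 2 (0.0515). Without fetus 1 the log2 fold change was -8.99 for Umod and -6.89 for Slc12a3.

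Of 13 collecting duct genes, 6 were lower and none was higher, with a median of -2.42, and 10 were lower without fetus 3. Scnn1a, a subunit of the epithelial sodium channel, was at 16.4, 13.9 and 18.2 CPM in the fetuses and at 161, 209 and 215 CPM in the mice, and fell by 3.59 (SE 0.19, edgeR adjusted p = 4.64e-05). Slc26a4, the anion exchanger pendrin of intercalated cells, was at 3.14, 2.19 and 0.648 CPM against 92.2, 178 and 137 CPM and fell by 6.09. Aqp2, the vasopressin-regulated water channel, was at 23.1, 6.07 and 0.0525 CPM against 49.7, 54.4 and 47.1 CPM. It was not called with all fetuses (adjusted p = 0.208) and was called lower without fetus 3 (0.0323) and with fetus 1 alone (0.00388).

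Genes of fatty acid oxidation and the peroxisome were mostly lower as well. Of 16 members, 12 were lower and none was higher, with a median of -2.39, and all 16 were lower with fetus 1 alone. Cpt1a, which admits fatty acids to mitochondria, was at 50.8, 90.2 and 123 CPM in the fetuses and at 461, 498 and 483 CPM in the mice, and fell by 2.45 (SE 0.32, edgeR adjusted p = 0.00128). Acaa1b, a peroxisomal thiolase, was at 5.68, 3.74 and 1.64 CPM against 192, 263 and 249.4 CPM and fell by 5.99.

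Of 18 glycolytic and gluconeogenic isozymes, 3 were higher and 7 were lower, against 25.1% and 23.9% of all genes tested. The median was -0.24. Without fetus 3, 1 was higher and 8 were lower, against 23.2% and 24.2% of all genes in that fit. With fetus 1 alone the median was -1.61. The gluconeogenic genes G6pc, Pck1 and Fbp1 fell by 7.04, 5.76 and 4.04. G6pc, which releases free glucose, was at 1.30, 6.98 and 3.91 CPM in the fetuses and at 495, 605 and 500.4 CPM in the mice. The hexokinases moved in opposite directions. Hk2, the form of growing and muscle cells, was at 23.9, 22.2 and 26.0 CPM against 1.46, 1.21 and 1.58 CPM and rose by 4.08 (SE 0.19, edgeR adjusted p = 3.73e-05), whereas Hk1 was at 68.8, 47.3 and 51.6 CPM against 199, 179 and 201 CPM and fell by 1.79. Ldhb, the lactate dehydrogenase subunit of oxidative tissue, fell by 2.58. The log2 fold change was -7.69 for G6pc without fetus 2 and -3.27 for Ldhb without fetus 1. Ldha and Pfkl were called higher by 0.53 (adjusted p = 0.0315) and 0.57 (0.0479), and neither was called with fetus 1 alone (0.238 and 0.126) or in 5 of the 6 fits that left out 1 animal.

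Genes of resident immune cells were mostly lower in the fetal samples. Of 15 members, 11 were lower and 1 was higher, with a median of -2.79. Cd74, the invariant chain of MHC class II, was at 1.35, 7.21 and 6.82 CPM in the fetuses and at 72.6, 110.2 and 119 CPM in the mice, and fell by 4.29 (SE 0.66, edgeR adjusted p = 0.00248). H2-Aa, a class II chain, fell by 3.95. The antibody light chain Igkc was at 1.72, 11.1 and 0.333 CPM against 492, 317 and 266 CPM and fell by 6.35, with a log2 fold change of -8.45 without fetus 2. The exception was Mrc1, a mannose receptor of tissue macrophages, at 99.1, 103 and 77.9 CPM against 22.8, 34.2 and 39.9 CPM, a rise of 1.53 (adjusted p = 0.00261). The call of Mrc1 was lost with all groups in a joint fit. H2-K1, a class I chain, was at 17.5, 96.8 and 226 CPM in the fetuses and at 188 CPM or more in the mice. It was not called (adjusted p = 0.227), was called lower without fetus 3 (0.0488), and with fetus 1 alone it fell by 3.97 (0.00115).

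Genes named by size alone were led on the fetal side by genes known from other tissues. Among called genes whose groups did not overlap and whose mean level was 4 or more in log2 CPM, the 10 largest rises were Fabp2, Cps1, Clca4b, Gucy2c, Tm4sf20, Meltf, Rbp2, Abcb11, Isx and Stfa3. Fabp2, the intestinal fatty acid binding protein, was at 0.208, 739 and 736 CPM in the fetuses and at 0.0470 CPM or less in the mice. The call (13.90, SE 2.94, edgeR adjusted p = 0.00871) was lost with fetus 1 alone (0.0523), as were those of Clca4b (0.0621), Gucy2c (0.127) and Meltf (0.0578). Cps1, of the urea cycle in liver and intestine, was at 0.884, 2306 and 2508 CPM against 0.187 CPM or less. Stfa3, a protease inhibitor, was instead at 168, 59.5 and 0.595 CPM, the order of the skin markers. The largest differences in CPM upward were those of Ttn, Myh8, Neb, Col3a1 and Mki67, and the first 3 of these are proteins of striated muscle.

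On the adult side the 10 largest falls were Vmn1r19, Serpina1f, Slc22a7, Vmn1r20, Ighv1-26, Cyp2a4, Miox, Cyp4a14, Cyp2d12 and Nat8f6, all of which were also called with fetus 1 alone. Slc22a7, an organic anion transporter, was at 0.104, 0.0324 and 0.0700 CPM in the fetuses and at 137, 77.9 and 108 CPM in the mice, and fell by 10.61 (SE 0.50, edgeR adjusted p = 3.69e-05). The calls of Slc22a7, Vmn1r19 and Serpina1f were lost with limma-voom. Cyp2a4, a steroid hydroxylase, was at 0.398, 0.324 and 0.193 CPM against 404, 181 and 259 CPM. Vmn1r19, annotated as a vomeronasal receptor, was at 0.0175 CPM or less against 71.8, 27.9 and 76.5 CPM. Vomeronasal receptors, immunoglobulin segments and cytochromes of these families have close copies, and how shared reads were counted is not known. The largest differences in CPM downward were those of Lrp2, Abca13, Klk1, Slc27a2 and Cubn. Klk1, tissue kallikrein of the distal nephron, was at 32.9, 31.4 and 40.3 CPM against 3077, 3418 and 3140 CPM and fell by 6.53 (SE 0.18, adjusted p = 2.53e-05), with the 3 fetuses close together.

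Fetal and adult kidney can also be compared in animals that share no sample with these. The set holds 5 dysmorphic kidneys of Pax8-Cre fetuses with ASPSCR1-TFE3 LSL/+ and non-transformed kidneys of 4 Sglt2-Cre mice with ASPSCR1-TFE3 LSL/+. All of these animals carry the fusion allele and its Cre, so stage and fusion act together there. Cre driver, count table and the dysmorphic state also differed together with stage. Kidney epithelial markers summed to 129.6 to 1264 CPM in the dysmorphic kidneys, against 1741 to 2279 CPM in the control fetuses. Titles of fetuses in both sets share a first part, so litter and library cannot be told apart between them. In that set 12831 of 21926 genes (58.5%) were called. Of 10734 genes called in the control animals and tested in both sets, 8771 (81.7%) were called in the same direction, and these were 70.4% of the 12451 calls in the other set. Among the 234 list members, 152 were called in both sets and all 152 had the same sign. Among all 21344 genes tested in both sets, 8797 were called in both and 8771 of these had the same direction. All 20 mitotic, 12 imprinted and 12 matrix members were called higher there too (background 29.4%), and 20 of 20 proximal tubule and 18 of 18 drug metabolism members were called lower (background 29.1%). Other lists differed more in their counts. Of the nephron progenitor genes, 6 were called higher and 2 lower in the fusion set, against 9 and 0 in the control animals. Early nephron genes were 2 higher and 4 lower, against 1 and 0, and podocyte genes were 1 higher and 7 lower, against 2 and 2. Higher calls numbered 4 against 10 for globin and erythroid genes and 3 against 6 for embryonic stroma. Differences between these counts were not tested. Cdk1 was at 57.0 to 80.8 CPM (median 74.2) in the dysmorphic kidneys and at 0.993 to 1.82 CPM in the non-transformed kidneys. Slc34a1 was at 0.438 to 4.96 CPM against 885 to 1542 CPM.

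**Figure D5:**
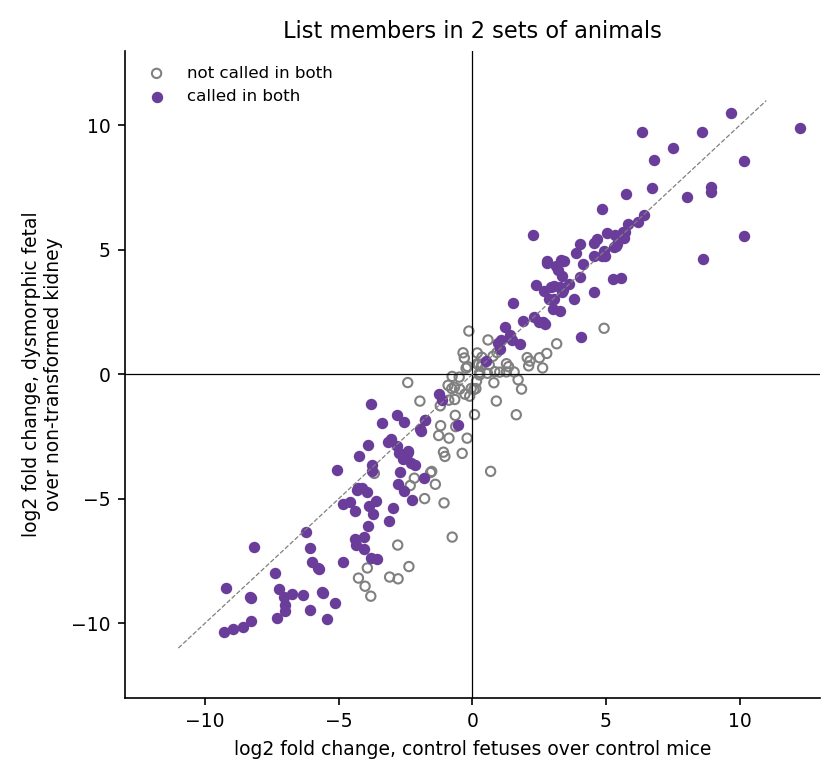
Log2 fold change of 234 list members, control fetuses over control mice (horizontal) against dysmorphic fetal over non-transformed kidney (vertical), with filled points called in both sets and the dashed line marking equal values. The 152 members called in both sets lie in the lower left and upper right only. Of all 8797 genes called in both sets, 8771 had the same direction.

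Other tissue was present in that set as well, with skeletal muscle markers summing to 9463 to 25167 CPM in the dysmorphic kidneys and to 6.45 to 30.8 CPM in the non-transformed kidneys. Skin markers summed to 1559 to 5033 CPM against 5.19 to 21.2 CPM. Intestinal markers summed to 6.495 to 2125 CPM in the dysmorphic kidneys, pancreatic markers to 3.51 to 486 CPM and cartilage markers to 10.97 to 2796 CPM. The highest sums in the non-transformed kidneys were 23.0, 3.13 and 6.24 CPM in that order. Pax2 was at 0.122 to 16.8 CPM (median 4.43) against 28.6 to 42.0 CPM. A test of whether the fetal to adult difference itself differed between the sets called 79 of 24161 genes (0.327%), of which 68 (0.281%) had the higher signed log2 change in the fusion animals, as a greater rise or a smaller fall. The number was 0 to 555 over the 15 fits that each left out 1 animal, and 5 or fewer in 11 of them. The split moved too, with 235 higher and 320 lower without dysmorphic fetus 5, and 360 higher and 150 lower without dysmorphic fetus 2.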

How the data were processed

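RNA was sequenced from formalin-fixed kidney with a stranded total RNA kit. The authors deposited raw counts per gene in 1 table per Cre driver. The submitters' processing notes name STAR 2.5.2a, Bowtie2, FastQC and MultiQC and the builds GRCm38 and mm10, without their roles. The counter and annotation are not given in the sources used here. Of the counts between 1 and 20, 80.1% to 84.3% were even in each library. Identifiers were matched to GENCODE M21 names, ignoring version (53274 of 53379 matched). The 2 libraries of a mouse were summed, so n is 3 animals a group, and p-values measure the spread between animals. With fetus 1 alone they rest on the spread between the mice only.

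Counts were fitted with edgeR 4.0.16 (R 4.3.3, limma 3.58.1) by the quasi-likelihood test with TMM factors and filterByExpr, Benjamini-Hochberg adjusted over all genes tested. Scripts were tested on simulated data. Members and gene lists were chosen with earlier results of these data known, and the intestinal, pancreatic and skin lists, the Pax2 plus Pax8 ratio and the fits with fetus 1 alone and with 1 library of mouse 1 were added after the data were seen. Named genes were list members, the 10 largest rises and falls among called genes whose groups did not overlap and whose mean level was 4 or more in log2 CPM, and the 5 largest CPM differences each way. A fold against mice without a count used a floor of 6 counts in a mouse (0.0282 CPM), or 3 fragments at 2 counts each since most low counts were even, which covers counting error only. Alternatives were RLE and upper quartile scaling, filters, halved counts, a 1.5-fold threshold, a joint fit, limma-voom, DESeq2 1.42.0 and leaving out each animal. Promoters came from the RefSeq table of GRCm38.p6. Some list members are counted but not reported here by name.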

Additional observations from a re-analysis of the deposited data

Results flagged for a closer look

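The fetal to adult difference of Dlk1 and of Ttn was larger in the animals with fusion alleles than in the control animals, by the test of the difference itself. For Dlk1 the log2 fold change was 6.35 in control animals and 9.73 in fusion animals, a difference of 3.44 (SE 0.51, edgeR adjusted p = 0.0417). It was called in 4 of the 15 fits that left out 1 animal, with adjusted p from 0.00492 to 0.116. For Ttn, the giant protein of striated muscle, the log2 fold change was 6.46 and 9.13, a difference of 2.71 (SE 0.43, edgeR adjusted p = 0.0417). It was also called in 4 of the 15 fits, with adjusted p from 0.00314 to 0.116. Skeletal muscle markers summed to 4677 to 4927 CPM in the control fetuses and to 9463 to 25167 CPM in the dysmorphic kidneys. The part of muscle in either difference was not tested.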

How the results depend on the processing

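No paired analysis was possible because no animal gave tissue to both groups and the title numbers do not pair them. The number of genes called in the control comparison ranged from 7973 to 11654 when 1 animal was left out, that in the fusion animals from 11751 to 12878, and that of list members from 152 to 185. None of these 3 counts moved by over 1.5 times under any alternative run. The test of the difference between the sets called 79 genes, 198 with a filter at 1 CPM, and 0 to 555 when 1 animal was left out, so that number is not stable. Upper quartile scaling gave 6881 higher and 4218 lower in the control comparison, and 7911 of 13035 called genes (60.7%) higher in the fusion animals.

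Of 114 named genes, 5 changed sign under some alternative, none of them called with all animals. Pax2 was -0.19 with all animals, 0.073 with upper quartile scaling, 0.83 with fetus 1 alone and -1.28 to 0.31 when 1 animal was left out. Arid3a was -0.054 with fetus 1 alone. Cyp27b1 was 0.55 with fetus 1 alone and -1.28 to 0.15 when 1 animal was left out, being above 0 without mouse 2 (0.15) or fetus 3 (0.12). Gstp1 was 0.11 with upper quartile scaling and -0.42 to 0.19 when 1 animal was left out, the last without fetus 1. Apob was -2.33 with limma-voom on the 6 adult libraries with the animal as a random block, -8.97 with fetus 1 alone and -0.20 to 0.89 when 1 animal was left out, being under 0 without fetus 2 (-0.20) or fetus 3 (-0.021). The cause was not tested. Of 96 called genes among those named, 37 moved by over 1.5 times when some animal was left out, most often without fetus 1 (28 genes) or mouse 1 (9 genes). Calls were lost with limma-voom for Cited1, Clca4b, Cpa1, Cps1, Fabp2, Igf2, Krt1, Serpina1f, Six2, Slc22a7, Stfa3 and Vmn1r19, and with all groups in a joint fit for Cubn, Dcn, Hnf4a, Hoxa11, Igf2, Igf2r, Itga8, Ldha, Mrc1, Ntn1, Osr1, Pfkl, Podxl and Wt1. Without mouse 1, H19 went from 7.50 to 11.04 and Myh8 from 9.81 to 12.04, and without fetus 1, Umod went from -7.30 to -8.99. Only 3 fetuses were available and they differed in the other tissues they held.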

Other observations

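The libraries of a mouse differed for some genes. Kap, a protein of the proximal tubule that androgen raises, had 1734 counts in the first library of control mouse 2 and 62527 to 155246 counts in the other 5 libraries. Adipoq, the fat cell hormone adiponectin, had 256 to 878 counts in the first library of each mouse and 0 to 46 counts in the second. Ddx3y had 130 counts in the second library of control mouse 1 and 4 to 12 counts in the other 5 libraries, and Hba-x had 12 counts there and 0 in each of the others.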
